A study of Mus musculus with 4 samples.

Results

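The genes of the desmosome were described in the liver of WT mice and of mice lacking DDI2, an aspartic protease, in hepatocytes. The list holds 10 of the 48709 genes counted: the desmogleins Dsg1a, Dsg1b, Dsg1c and Dsg2, the desmocollin Dsc2, the desmoplakin gene Dsp, the plakoglobin gene Jup, and the plakophilins Pkp2, Pkp3 and Pkp4. It was chosen because both libraries labelled DDI2-KO had a lower Dsg1c count, and the other 9 genes were added as its relatives. Therefore the Dsg1c values are a description and carry no test. The study provided 4 mRNA libraries from whole liver of untreated C57BL/6 mice, 2 of each genotype. Both genotypes carried 2 floxed Ddi2 alleles (Ddi2 flox/flox). DDI2-KO mice also carried Cre recombinase under the albumin promoter (AlbCre+), which is active in hepatocytes, so other liver cells keep the gene, and WT mice were littermates without Cre. The mice were adults, and the sex and age of each sequenced mouse were not given in the sources used here. The Y-linked genes Ddx3y, Uty, Kdm5d and Eif2s3y had 0 reads in every library.

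Desmosomes are plaques that join neighbouring cells and anchor their intermediate filaments, which in hepatocytes are built from keratins 8 and 18. Desmogleins and desmocollins are cadherins that cross the membrane and bind across the gap between cells. On the inside, plakoglobin and the plakophilins bind the cadherin tails, and desmoplakin links them to keratin. Simple epithelia such as liver use mainly desmoglein 2 and desmocollin 2, whereas desmogleins 1 and 3 are best known from the epidermis.

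The libraries held between 22501208 and 34109018 reads on genes, and both WT libraries were deeper than both libraries labelled DDI2-KO. The Ddi2 count could not check the labels. This is because exon 2, taken here as the floxed exon, makes up 130 of the 9553 bases of its longest transcript. WT replicates gave 4749 and 3812 Ddi2 reads, against 4068 and 3777 in the libraries labelled DDI2-KO. For Ddi2 the log2 fold change, DDI2-KO minus WT as for all fold changes here, was 0.28 (SE 0.17, adjusted p = 0.349 by edgeR's quasi-likelihood test, adjusted by Benjamini-Hochberg). The hepatocyte markers Alb, Ttr, Apoa1, Serpina1c, Cps1 and Hnf4a were present in every library, and 0 of the 6 passed the edgeR test, 0 of them also at an unadjusted p under 0.05 and 0 by DESeq2 or limma-voom. Of 13699 genes with enough reads to test, 346 had an edgeR adjusted p under 0.05, or 2.53%, and 23.5% had an unadjusted p under 0.05. The count of 346 was 153 without WT replicate 1, 203 without WT replicate 2 and 631 without DDI2-KO replicate 2.

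Among the desmosomal cadherins, Dsg1c, the gene on which the list was chosen, was far lower in both libraries labelled DDI2-KO, but its WT replicates lay far apart. Dsg1c had 134 reads in WT replicate 1 and 679 in WT replicate 2, against 22 in DDI2-KO replicate 1 and 11 in DDI2-KO replicate 2. In CPM, which are read counts divided by the TMM-scaled library size and multiplied by a constant, the levels were 3.99 and 22.0 in WT against 0.850 and 0.479 in DDI2-KO. The groups did not overlap, and the WT pair held both the highest value and most of the spread. The WT mean was 12.98 ± 12.7 CPM and the DDI2-KO mean 0.664 ± 0.263 CPM (SD, n = 2 each). The fitted log2 fold change was -4.26 (SE 1.16), and it was -2.57 (SE 0.47) without WT replicate 2. Between the WT replicates, Dsg1c differed 5.51-fold, where the median gene differed 1.14-fold. Only 47 of 13693 genes, or 0.343%, Dsg1c included, differed as much. In the DDI2-KO pair Dsg1c differed 1.78-fold beside a median of 1.21-fold, a spread that 9.40% of genes reached. In bulk liver RNA, fewer cells of a type and less RNA per cell cannot be told apart.

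The 2 closest paralogs of Dsg1c were nearly silent. Dsg1a (ENSMUSG00000069441) had 0 reads in each library, which allows up to 0.0892 and 0.0971 CPM in WT and 0.116 and 0.131 CPM in DDI2-KO, the level of 3 reads. Dsg1b (ENSMUSG00000061928) had 1 read in each WT replicate and 2 and 1 in DDI2-KO, all under that floor, so no fold change is given. Neither gene had enough reads to be tested. All of the measurable desmoglein 1 signal thus lay on Dsg1c (ENSMUSG00000034774). The 3 genes stand side by side on chromosome 18 of GRCm38, Dsg1c at 20247340 to 20285031, Dsg1a at 20310811 to 20343350 and Dsg1b at 20376729 to 20410196, all on the plus strand. Their coding sequences are alike, at 97.0% identity between Dsg1a and Dsg1b, 96.0% between Dsg1a and Dsg1c and 95.7% between Dsg1b and Dsg1c over the aligned bases. Of all 50-base stretches of the longest Dsg1c transcript, 29.6% also occur in transcripts of another gene, 26.2% in Dsg1a. The shared share was 35.0% for Dsg1a and 49.0% for Dsg1b. Reads from such stretches can align to more than 1 place and then were not counted, so the counts of the 3 genes may understate their reads and the 3 are uncertain as separate genes. Adding the 3 counts into 1 gave a log2 fold change of -4.14 (SE 1.14), and -2.45 without WT replicate 2, values that rest on Dsg1c almost alone.

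Desmoglein 2 and desmocollin 2, the cadherins typical of liver, had overlapping groups. Dsg2 (ENSMUSG00000044393, chromosome 18, 20558074 to 20604521) was at 225 and 222 CPM in WT and 194 and 230 CPM in DDI2-KO. DDI2-KO replicate 1 was the lowest and DDI2-KO replicate 2 the highest of the 4. Its log2 fold change was -0.08 (SE 0.17, edgeR adjusted p = 0.831). Dsc2 (ENSMUSG00000024331, chromosome 18, 20030633 to 20059554) was at 71.4 and 94.2 CPM in WT and 57.0 and 87.1 CPM in DDI2-KO. Within each genotype replicate 2 was the higher, by 1.32-fold in WT and 1.53-fold in DDI2-KO, which is more than the difference between the means. The log2 fold change of Dsc2 was -0.20 (SE 0.24, edgeR adjusted p = 0.659). For both genes the direction turned without DDI2-KO replicate 1, to 0.046 for Dsg2 and 0.077 for Dsc2, and for Dsc2 also without WT replicate 2, to 0.013. The longest Dsg2 transcript shares 5.07% of its 50-base stretches with other genes, 4.95% with the antisense gene Gm16090, which had at most 6 reads per library. That of Dsc2 shares none with another gene.

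**Figure D1:**
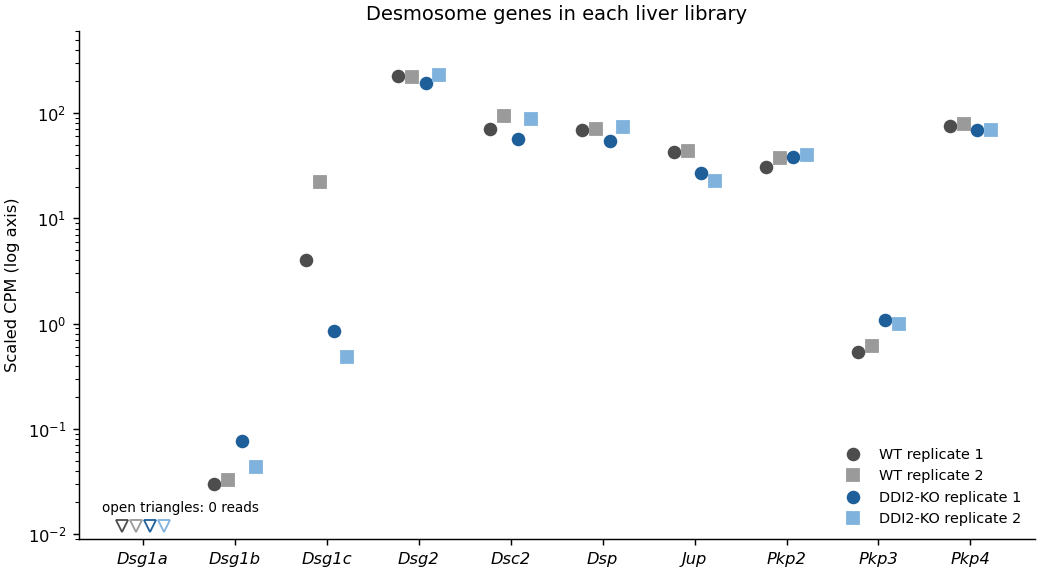
Levels of the 10 desmosome members in each library, in TMM-scaled CPM on a log axis, with grey symbols for the WT and blue symbols for the DDI2-KO libraries, circles for replicate 1, squares for replicate 2 and open triangles for 0 reads. Dsg1c spans 3.99 to 22.0 CPM in WT and lies at 0.850 and 0.479 CPM in DDI2-KO, the Jup pairs are close within each genotype and apart between them, and Dsg2, Dsc2 and Dsp overlap.

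Among the plaque proteins, Jup, which encodes plakoglobin, was lower in both libraries labelled DDI2-KO, with a small spread within each genotype. Jup (ENSMUSG00000001552, chromosome 11, 100368958 to 100397763, minus strand) had 1438 and 1358 reads in the WT replicates and 706 and 522 in DDI2-KO. The levels were 42.8 and 44.0 CPM in WT and 27.3 and 22.7 CPM in DDI2-KO. The means were 43.4 ± 0.836 and 25.0 ± 3.23 CPM (SD, n = 2 each), so that DDI2-KO held 0.576 of the WT level. The log2 fold change was -0.79 (SE 0.17), with an unadjusted p of 0.00129 and an edgeR adjusted p of 0.0503, just above the threshold of 0.05. Over the other ways of fitting the data the adjusted p ranged from 0.00270 to 0.195. It was 0.00735 by DESeq2, 0.0646 by limma-voom and 0.0381 without DDI2-KO replicate 1, and the log2 fold change stayed between -0.93 and -0.66 when any library was left out. No 50-base stretch of the longest Jup transcript occurs in transcripts of another gene. The summed levels of 6 hepatocyte markers (144479 and 148506 against 153640 and 178574 CPM in WT) and of 6 endothelial markers (242 and 232 against 285 and 280 CPM) were also lower in both libraries labelled DDI2-KO. Both lists had 3 markers below 0 and 3 above 0, and their part in the Jup difference was not tested.

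Desmoplakin, the partner that ties plakoglobin to keratin, had overlapping groups. Dsp (ENSMUSG00000054889, chromosome 13, 38151294 to 38198577, plus strand) was at 68.5 and 71.3 CPM in WT and 54.0 and 73.7 CPM in DDI2-KO. DDI2-KO replicate 1 was the lowest and DDI2-KO replicate 2 the highest. The log2 fold change was -0.13 (SE 0.19, edgeR adjusted p = 0.718) and turned to 0.080 without DDI2-KO replicate 1. The unreviewed gene Gm10129 overlaps Dsp on the other strand and had at most 6 reads per library.

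The promoters of these plaque genes are shown because Jup and Dsp act in one complex. The genotypes were apart for Jup and overlapped for Dsp, but whether the 2 changes differed was not tested. RefSeq windows of GRCm38.p6 matched 3 of the 10 members, namely Jup, Dsp and Pkp4, the last with 2 windows. The 250 bases before the start are given 5′ to 3′ on the gene's strand, from chr11:100397791-100398040 (minus strand) for Jup and from chr13:38151044-38151293 (plus strand) for Dsp, with the motif match in capitals.
Jup: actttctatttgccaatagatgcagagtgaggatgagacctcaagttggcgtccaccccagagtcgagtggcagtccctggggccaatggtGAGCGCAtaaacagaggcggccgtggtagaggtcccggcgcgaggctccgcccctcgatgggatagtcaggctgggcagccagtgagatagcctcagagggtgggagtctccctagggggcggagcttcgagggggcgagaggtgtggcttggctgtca
Dsp: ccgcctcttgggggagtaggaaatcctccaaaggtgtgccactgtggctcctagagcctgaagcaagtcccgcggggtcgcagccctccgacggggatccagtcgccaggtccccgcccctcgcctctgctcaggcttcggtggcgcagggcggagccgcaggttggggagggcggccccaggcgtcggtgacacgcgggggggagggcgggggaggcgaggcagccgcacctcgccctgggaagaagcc
Both strands were searched for TGACNNNGC, the core of the antioxidant response element bound by NRF factors, and for TGCACNC or TGCGCNC, cores of the metal response element bound by MTF1. TGACNNNGC occurred in 12.4% of 32851 windows of this length and in none of these members' windows. Either metal response core occurred in 25.7% of the windows. The Jup window held 1, read on the opposite strand and printed as GAGCGCA, the Dsp window held none, and 1 of the Pkp4 windows held 1. The motifs do not overlap each other here, and a match describes letters, not a bound site.

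The plakophilins, which cluster the other plaque proteins, gave differences in both directions, and none passed the test. Pkp2 (ENSMUSG00000041957, chromosome 16, 16213318 to 16272712) was at 30.7 and 37.3 CPM in WT and 38.4 and 40.0 CPM in DDI2-KO, with a log2 fold change of 0.21 (SE 0.17, edgeR adjusted p = 0.499). Pkp4 (ENSMUSG00000026991, chromosome 2, 59160850 to 59355208), which is also found at adherens junctions, was at 75.0 and 78.8 CPM in WT and 68.8 and 69.4 CPM in DDI2-KO, with a log2 fold change of -0.15 (SE 0.15, edgeR adjusted p = 0.590). For both genes the groups were apart, and neither passed the test. Pkp3 (ENSMUSG00000054065, chromosome 7, 141078218 to 141090510), the plakophilin of most simple and stratified epithelia, had few reads, with 18 and 19 WT reads and 28 and 23 DDI2-KO reads. Both DDI2-KO libraries were above both WT libraries, at 1.08 and 1.00 against 0.535 and 0.615 CPM. The ratio of the pooled and scaled Pkp3 counts was 1.82 (95% interval 1.17 to 2.86, counting error only), and its edgeR adjusted p was 0.241.

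Of the 10 members, 8 had enough reads to test, and of the 7 tested members other than Dsg1c the edgeR test called 0. Jup alone among these 7 had an unadjusted p under 0.05, beside 23.5% of all genes. DESeq2 called 1 of them, Jup, and limma-voom called 0. Both DDI2-KO libraries were below both WT libraries for Dsg1c, which the list was chosen on, and for Jup and Pkp4, beside 27.7% of all genes. They were above both WT libraries for Pkp2, Pkp3 and, under the floor, Dsg1b, beside 28.0% of all genes. Of the 7 tested members other than Dsg1c, 2 were thus lower and 2 higher without overlap, shares near those of all genes. The median log2 fold change of the 8 tested members was -0.14, and that of all genes was -0.015. Leaving out DDI2-KO replicate 1 turned the members' median to 0.061. Without Dsg1c, 5 of 7 lay below 0 with a median of -0.13, and the median size was 0.20, against 0.30 over all genes.

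**Figure D2:**
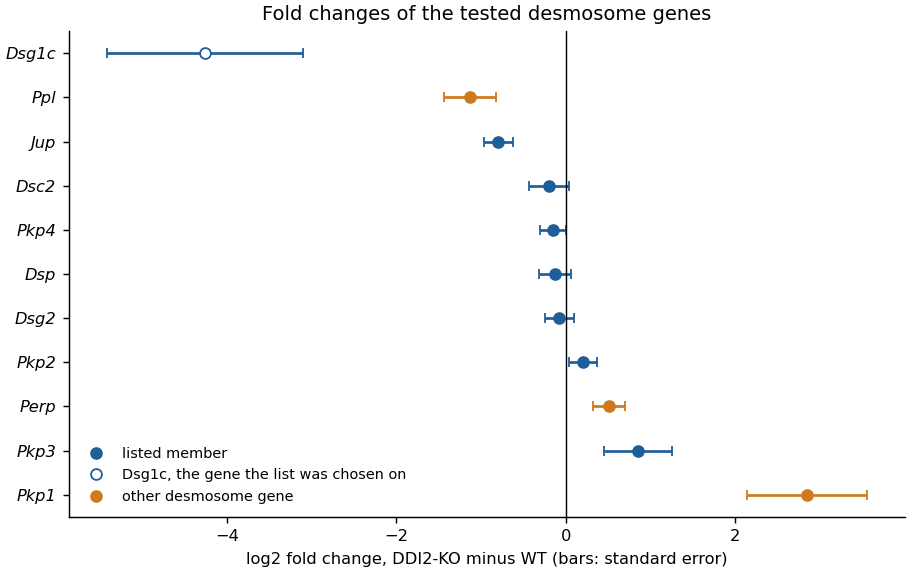
Log2 fold changes of the tested desmosome genes, DDI2-KO minus WT, with bars for the standard error. The open circle is Dsg1c at -4.26, blue points are the other members, of which Jup at -0.79 is the lowest, and orange points are the other desmosome genes, where the Pkp1 value rests on 4 reads in WT.

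Levels per length place Dsg2 first and the desmoglein 1 genes near the bottom. Per kilobase of merged exons, mean levels over the 4 libraries were 26.3 CPM for Dsg2, 14.7 for Dsc2, 12.8 for Pkp4, 6.92 for Dsp, 6.82 for Pkp2, 5.31 for Jup, 1.67 for Dsg1c, 0.224 for Pkp3, 0.0115 for Dsg1b and 0 for Dsg1a. This order differed within the genotypes, since Pkp3 (0.299 and 0.277 CPM per kilobase) was above Dsg1c (0.208 and 0.117) in both DDI2-KO libraries, and the WT mean of Jup (6.74) was above that of Pkp2 (6.34). Dsc2 and Pkp4 were neighbours whose ranges overlapped, at 10.8 to 17.9 and 12.1 to 13.8 CPM per kilobase. Dsp, Pkp2 and Jup also had overlapping ranges, with 5.60 to 7.63 for Dsp, 5.72 to 7.46 for Pkp2 and 3.53 to 6.83 for Jup. Merged exons spanned 6436 bases for Jup and 5360 for Pkp2, against 3205 and 2931 bases in their longest transcripts. For Dsp the lengths were 9659 and 9592 bases. The order of Dsp, Pkp2 and Jup and the sizes of the shares below therefore depend on the length used. Dsg2 stood above all others in every library, at 23.5 to 27.8 CPM per kilobase.

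As a share of the cadherin members' summed level per kilobase, Dsg1c made up 2.34% and 10.7% in WT and 0.603% and 0.263% in DDI2-KO. Dsg2 made up 65.2% and 53.6% in WT and 68.0% and 62.6% in DDI2-KO, and Dsc2 made up 32.4% and 35.7% against 31.3% and 37.1%. Dsg1c was thus a minor cadherin in each library, and the Dsg2 and Dsc2 shares overlapped between the genotypes. The summed cadherin level was 41.7 and 50.1 CPM per kilobase in WT and 34.5 and 44.4 in DDI2-KO, which also overlapped.

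Within the plaque genes the Jup share was smaller in both libraries labelled DDI2-KO. Jup made up 20.3% and 19.4% of the plaque members' summed level per kilobase of merged exons in WT and 14.4% and 11.4% in DDI2-KO. Pkp2 went from 17.5% and 19.8% to 24.4% and 24.0%, without overlap. Dsp (19.1% to 24.6% over the 4 libraries) and Pkp4 (40.1% and 39.3% against 41.1% and 39.2%) overlapped. Set against single partners, which needs no library scaling, there were 62.5 and 61.7 Jup reads per 100 Dsp reads in WT and 50.5 and 30.8 in DDI2-KO. Per 100 Dsg2 reads there were 19.0 and 19.8 Jup reads in WT and 14.1 and 9.88 in DDI2-KO. Jup was the lower in DDI2-KO against both partners, and DDI2-KO replicate 2 gave the lowest ratio each time. Whether its change differed from theirs was not tested.

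**Figure D3:**
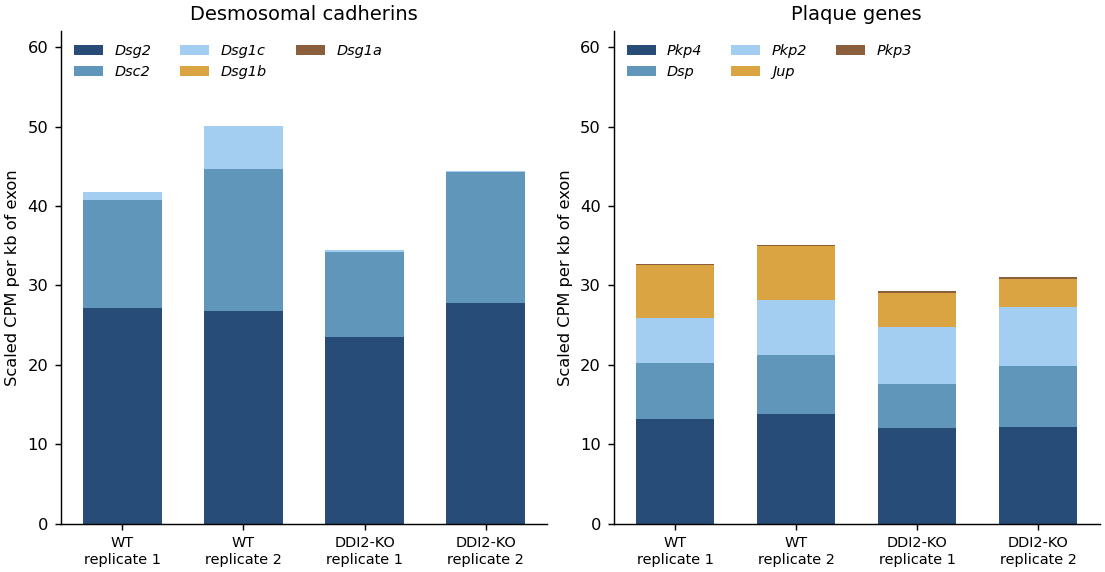
Stacked levels of the cadherin members (left) and the plaque members (right) in each library, in TMM-scaled CPM per kilobase of exon, with 1 colour a gene and bars starting at 0. Dsg2 and Dsc2 fill nearly all of the cadherin bars, Dsg1c is visible mainly in WT replicate 2, where it makes up 10.7%, and the Jup segment is smaller in both DDI2-KO bars.

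Other desmosome genes were given from a list of 8. The epidermal cadherins Dsg3, Dsg4, Dsc1 and Dsc3 had at most 2 reads in any library, and envoplakin (Evpl) had 2 to 8. The remaining 3 were tested, and the edgeR test called 0, beside 2.53% of all genes. Each had an unadjusted p under 0.05, 1 lower and 2 higher in DDI2-KO, beside 23.5% of all genes. DESeq2 called 1, Ppl, and limma-voom 0. Ppl, which encodes the desmosome-associated periplakin, counted 349 and 619 reads in the WT replicates and 182 and 157 in DDI2-KO, or 10.4 and 20.0 against 7.03 and 6.83 CPM. As with Dsg1c, the WT replicates of Ppl were apart, by 1.93-fold, while those of DDI2-KO lay close together. Its log2 fold change was -1.13 (SE 0.31) with an edgeR adjusted p of 0.0882. Over the alternatives the adjusted p of Ppl ranged from 0.00533, without a filter on low counts, to 0.389, without WT replicate 2. It was 0.0179 by DESeq2 and 0.0266 without WT replicate 1. The log2 fold change of Ppl was -0.58 without WT replicate 2 and -1.53 without WT replicate 1. Perp, a membrane protein needed for desmosome assembly in skin, was at 95.3 and 73.6 CPM in WT and 110 and 130 CPM in DDI2-KO. Both DDI2-KO values were above both WT values for Perp, with a log2 fold change of 0.51 (SE 0.19, edgeR adjusted p = 0.163). Pkp1, the plakophilin of stratified epithelia, had 2 reads in each WT replicate and 10 and 13 in DDI2-KO, a scaled ratio of 7.59 (95% interval 2.59 to 30.2, counting error only) with an edgeR adjusted p of 0.0702. The Pkp1 adjusted p ranged from 0.0213, without a filter on low counts, to 0.313, without WT replicate 1.

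Neither of the tested genes beside the cadherin cluster passed the test. Ttr, the transthyretin gene expressed strongly in hepatocytes, lies within 200 kb of Dsg2 and counted 201644 and 213783 WT reads, against 213243 and 172663 for DDI2-KO. Its log2 fold change was 0.29 (SE 0.17, edgeR adjusted p = 0.351). B4galt6, a galactosyltransferase gene, had 133 and 104 WT reads and 65 and 85 DDI2-KO reads, with a log2 fold change of -0.24 (SE 0.29, edgeR adjusted p = 0.658) that turned to 0.018 without DDI2-KO replicate 1. The other annotated genes there, Gm16090, Gm10269 and Gm24238, had at most 6 reads in any library. Whether these differences differed from that of Dsg1c was not tested.

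Other cell junctions and the keratins to which desmosomes attach gave no edgeR call, beside 2.53% called and 23.5% at an unadjusted p under 0.05 over all genes, a background at which few calls would fall in lists of this size. Of 10 adherens junction genes, all tested, 0 were called and 0 had an unadjusted p under 0.05, with a median log2 fold change of 0.063. The values were 0.30 for Ctnnb1, the β-catenin relative of plakoglobin, 0.12 for Ctnna1, -0.13 for Cdh2 and 0.51 for Cdh1, with adjusted p from 0.300 to 0.700. Of 15 tight junction genes 0 were called, with 3 lower and 2 higher at an unadjusted p under 0.05 and a median of 0.049. The 4 most abundant were Cldn2 at 0.33, Cldn1 at 0.10, Cldn12 at 0.05 and F11r at 0.31, with adjusted p from 0.292 to 0.899. The connexins of gap junctions gave 0 calls of 6 and 0 at an unadjusted p under 0.05, with Gjb1 at -0.22 and Gjb2 at -0.06, the main hepatocyte connexins, and Gja1 and Gja4 both at 0.09. Krt8 and Krt18, the keratins of hepatocytes, were at 0.06 and -0.03, and Krt23 and Krt19 at -0.62 and 0.32. Among the 5 keratins tested the edgeR test called 0, and 0 had an unadjusted p under 0.05. The signs for Cldn1, Cldn12, Gjb2, Gja1, Gja4, Krt8, Krt18 and Krt23 turned when 1 library was left out, and those of Cldn12 and Krt18 also turned with other scalings. DESeq2 and limma-voom also called 0 genes in these 4 lists. Without DDI2-KO replicate 1, edgeR called Cldn3, named here after its values were seen, with an adjusted p of 0.0248 in a range of 0.0248 to 0.413 over the alternatives.

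**Figure D4:**
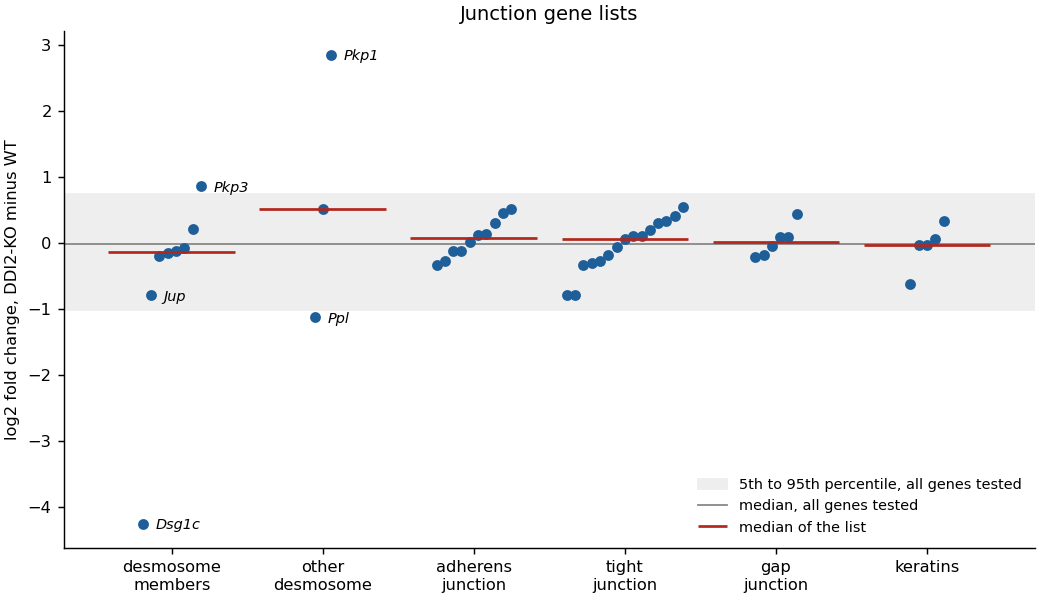
Log2 fold changes, DDI2-KO minus WT, of the tested genes of each junction or keratin list, 1 point a gene, with a red line at the list's median, a grey line at the median of all genes tested and a grey band from their 5th to their 95th percentile (-1.02 to 0.74). The median was -0.14 for the desmosome members, 0.063 for adherens, 0.049 for tight and 0.017 for gap junction genes and -0.028 for keratins. The members run from Dsg1c at -4.26, which the list was chosen on, with Jup next at -0.79, to Pkp3 at 0.85. The tight junction genes run from -0.80 to 0.54.

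Markers of other cells that carry desmosomes were low or at 0. Of 8 markers of squamous epithelium, where desmoglein 1 is abundant, Krt5, Krt1, Krt15 and Trp63 had 0 reads in all 4 libraries, and the list summed to 1.25 and 1.59 CPM in WT and 1.00 and 0.957 CPM in DDI2-KO. The 4 heart muscle markers summed to at most 0.518 CPM, with Myh6 at 0. The 5 mesothelial markers summed to 4.88 and 9.03 CPM in WT and 5.95 and 6.09 CPM in DDI2-KO, so the groups overlapped. Only 2 of the squamous markers, 4 of the mesothelial markers and 0 of the heart muscle markers had enough reads to test. No heart muscle marker could therefore be called. Of the tested markers the edgeR test called 0, beside 2.53% of all genes. At an unadjusted p under 0.05 there were 0, beside 23.5% of all genes. DESeq2 and limma-voom also called 0. With so few markers tested, these counts do not show that the cells were unchanged.

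Summed marker levels of 4 resident liver cell types lay apart between the genotypes. Of all single genes, 27.7% were apart and lower in DDI2-KO and 28.0% apart and higher. The hepatocyte sum was 153640 and 178574 CPM in WT and 144479 and 148506 CPM in DDI2-KO, most of it Alb, the albumin gene, at 134404 and 154589 against 122390 and 128489 CPM. The 7 bile duct markers summed to 56.5 and 53.2 CPM in WT and 70.5 and 68.8 CPM in DDI2-KO, with 0 called by edgeR, DESeq2 or limma-voom and 1 higher at an unadjusted p under 0.05. Spp1 held most of that sum, at 51.9 and 46.3 CPM in WT and 64.2 and 62.4 CPM in DDI2-KO. The groups were apart and higher for 2 of the 7, Spp1 and Krt19, and overlapped for Epcam, Sox9 and Krt7. The 4 Kupffer cell markers summed to 526 and 448 CPM in WT and 667 and 570 CPM in DDI2-KO, also with 0 called and 1 higher at an unadjusted p under 0.05. DESeq2 called that one, the macrophage receptor gene Adgre1, with an adjusted p of 0.0468 in a range of 0.0264 to 0.333 over the alternatives, and limma-voom called 0. The 6 endothelial markers summed to 285 and 280 CPM in WT and 242 and 232 CPM in DDI2-KO, with 3 log2 fold changes below 0 and 3 above. Most of that difference lay in Stab2, at 73.7 and 61.2 CPM in WT and 32.9 and 29.9 CPM in DDI2-KO, while Kdr, the VEGF receptor gene, was at 87.6 and 79.9 against 93.6 and 93.1 CPM. Stab2, a scavenger receptor of sinusoidal endothelium, fell by 1.10 on the log2 scale (SE 0.17, edgeR adjusted p = 0.0288), and without WT replicate 1 the adjusted p was 0.109. The part of these cells in the values of the desmosome genes was not tested.

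The genes whose levels over the 4 libraries were most like those of Dsg1c were not desmosome genes. Likeness was the Euclidean distance between mean-centred log2 CPM over 4 libraries, among the 11974 genes whose mean reached 1 CPM, so the groups and the high WT replicate 2 both set it. The nearest was Dnaic1, an axonemal dynein gene, at a distance of 0.87, with 90 and 242 WT reads and 15 and 8 DDI2-KO reads. Next was Serpina1e, a hepatocyte α1-antitrypsin paralog, at 1.13, with 68885 and 134536 WT reads and 11315 and 6008 DDI2-KO reads. All 5 nearest genes had their highest count in WT replicate 2. H19, an imprinted non-coding RNA, followed at 1.27 with 38 and 356 WT reads and 17 and 10 DDI2-KO reads. Gnat1, a rod transducin gene, stood at 1.49 with 394 and 866 against 107 and 55 reads, and the predicted gene Gm3839 at 1.59 with 86 and 322 against 28 and 23 reads. Reads of Serpina1e and Gm3839 are uncertain, since 35.6% and 59.8% of the 50-base stretches of their longest transcripts occur in another gene. The nearest desmosome member was Jup at a distance of 3.41, ranked 486, followed by Dsc2 at 3.92, ranked 3131. Pkp4, Dsp, Dsg2 and Pkp2 lay at 3.99 to 4.27, ranked 3855 to 7275.

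**Figure D5:**
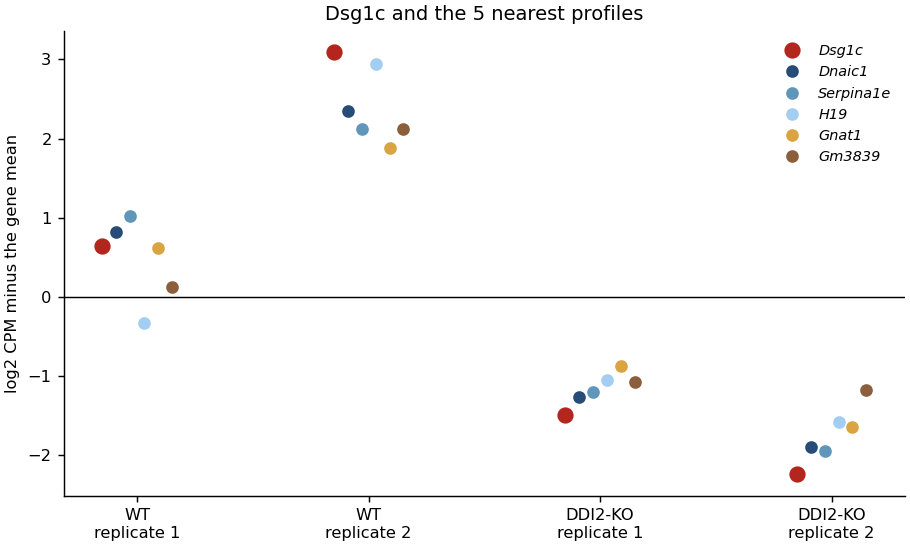
Log2 CPM of Dsg1c and its 5 nearest genes in each library, centred on each gene's mean over the 4 libraries, with points shifted sideways for view. All 6 genes are highest in WT replicate 2 and low in both DDI2-KO libraries.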

How the data were processed

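RNA from whole liver of 2 WT and 2 DDI2-KO mice was sequenced from TruSeq Stranded mRNA libraries. The authors deposited raw counts of reads per Ensembl gene. The submitters' processing notes name cutadapt 1.8, STAR 2.5.2b, HTSeq 0.6.1 and GRCm38, while the annotation and the strand setting of the counting are not given in the sources used here. Without a stated strand setting, reads of antisense partners cannot be told apart. HTSeq leaves out reads that align to more than 1 place. Its count of such alignments equalled 47.3% to 65.8% of the reads on genes, and these summary lines were not used as genes. GENCODE M21 gave symbols and coordinates for 48349 of 48709 identifiers.

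Samples were grouped by their genotype labels. edgeR 4.0.16 in R 4.3.3 filtered low counts with filterByExpr, scaled libraries by TMM and tested genotype, the only term, with glmQLFit (robust) and the two-sided glmQLFTest, and p-values were adjusted by Benjamini-Hochberg over all 13699 genes tested. SEs were log2 fold changes over the square root of F, without sign. Log2 CPM used a prior count of 2, and the floor was 3 counts. Intervals and floors cover counting error only. The replicates are described as separate samples, with 2 a group. Each p-value sets the difference between the genotypes against the spread between these libraries, which is estimated with help from all genes tested. Replicates differed beyond sampling noise, with chi-square per degree of freedom of 64.7 in WT and 34.7 in DDI2-KO.

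The members and lists were chosen with earlier results of these data known. Genes named were the 10 members, 8 other desmosome genes, called or otherwise the 4 most abundant genes of each junction or keratin list, genes within 200 kb of the cadherins, Ddi2 and the 5 profiles nearest to Dsg1c. Stab2, Adgre1, Cldn3 and the tight junction genes under the closing observations were named after their values were seen. Alternatives were DESeq2 1.42.0, limma-voom (limma 3.58.1), scaling by RLE, by upper quartile or by library totals alone, no filter, a minimum mean of 1 CPM, fitting without robust estimation or with a replicate block, summed Dsg1 paralogs and leaving out each library. For shared 50-base stretches, the longest transcript of each gene was searched against both strands of other genes' GENCODE transcripts.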

Additional observations from a re-analysis of the deposited data

How the results depend on the processing

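The 346 genes called became 932 by DESeq2, 136 by limma-voom, 1544 without a filter, 152 without robust estimation and 153 to 631 when 1 library was left out. Upper-quartile factors gave 126 higher and 191 lower calls, 39.7% higher, against 182 and 164, 52.6% higher, with TMM and 230 and 148, 60.8% higher, with library totals only. Replicate numbers are shared by both genotypes. Over all genes tested, the deviations of same-numbered libraries from their genotype means correlated at only 0.0588, and nothing else pairs these libraries. A replicate block gave 1108 calls, 1 of them a member (Jup, edgeR adjusted p = 0.0150), and also called Pkp1 (0.0416) and Ppl (0.0261). The members called, 0 in the main analysis, became 1, always Jup, with RLE factors (adjusted p = 0.0488), upper-quartile factors (0.0466), DESeq2 (0.00735) and no filter (0.00270), and ranged from 0 to 1 when a library was left out. The median of the tested members then ranged from -0.28 to 0.061, and the log2 fold change of the summed Dsg1 reads from -4.90 to -2.45, lowest in size without WT replicate 2.

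The sign turned for 12 named genes. When 1 library was left out, log2 fold changes ranged from -0.19 to 0.046 for Dsg2, -0.53 to 0.077 for Dsc2, -0.36 to 0.080 for Dsp, -0.53 to 0.018 for B4galt6, -0.11 to 0.30 for Cldn1, -0.14 to 0.22 for Cldn12, -0.13 to 0.025 for Gjb2, -0.13 to 0.30 for Gja1, -0.33 to 0.42 for Gja4, -0.24 to 0.32 for Krt8, -0.24 to 0.18 for Krt18 and -1.29 to 0.65 for Krt23. Cldn12 was at -0.0050 with upper-quartile factors and Krt18 at 0.020 with library totals. The cause was not tested. Of the values of single named genes under the alternatives, 450 stayed alike, 15 gained a call, 1 lost it, 5 moved by more than the replicate spread and 19 turned. For Dsg1c and its 5 nearest genes, alike meant a move smaller than the replicate spread, with no threshold checked. For the other genes it meant the same direction and side of the threshold. Pkp1, Pkp3 and Krt19 have no value under some alternatives, where too few reads were left. Both the 2 libraries a group and, for genes with few reads, depth limit precision.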

Other observations

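Among the 15 tight junction genes, 5 had an unadjusted p under 0.05 in the edgeR quasi-likelihood test without passing its Benjamini-Hochberg adjustment, beside 23.5% of all genes, and they are named here after their values were seen. Cldn14, a claudin of bile canaliculi, was at 6.48 and 6.34 CPM in WT and 4.02 and 3.35 CPM in DDI2-KO, with a log2 fold change of -0.80 (SE 0.23, adjusted p = 0.0921). Tjp1, the scaffold ZO-1, was at 60.0 and 60.8 CPM in WT and 45.7 and 49.4 CPM in DDI2-KO, a log2 fold change of -0.34 (SE 0.15, adjusted p = 0.213). Cldn3 was at 30.9 and 34.4 CPM in WT and 25.4 and 12.4 CPM in DDI2-KO, so its DDI2-KO replicates lay further apart than those of Tjp1. Ocln, which encodes occludin, was at 32.9 and 26.1 CPM in WT and 38.4 and 39.9 CPM in DDI2-KO. Cldn5, the claudin of endothelium, was at 4.13 and 4.05 CPM in WT and 6.34 and 5.57 CPM in DDI2-KO. Over all 15 tight junction genes, 3 were lower and 5 higher in DDI2-KO without overlap, beside 27.7% and 28.0% of all genes. The 5 named genes were picked by their p in these libraries, so their own separation carries no weight. Of them, 0 passed the adjustment.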
